A study of Arabidopsis thaliana with 4 samples.

Results

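The enzymes that reduce nitrate and handle ammonium were followed through 6 probe sets of the Affymetrix ATH1 array, 259681_at for the nitrate reductase gene NIA1, 261979_at for the nitrate reductase gene NIA2, 265475_at for nitrite reductase NIR1, 250032_at and 250580_at for the glutamate dehydrogenase genes GDH1 and GDH2, and 247218_at for asparagine synthetase ASN2. The rule takes them by probe set identifier with no threshold on a value, although earlier results of these data were known when the set was chosen. They are 6 of the 22746 probe sets outside the array's controls. In Arabidopsis thaliana Col-0, mature source leaves of plants that had not flowered were cut when the light period ended and stood by their petioles for 13 h in the dark. For all arrays the labels give a day of 14 h at 20 °C and a night of 10 h at 16 °C. The buffer was 2 mM MES at pH 6.5 in both groups, with 100 mM sorbitol for the control group and 100 mM sucrose for the treated group. Each group had 2 arrays, numbered 1 and 2 in their titles, and the sources used here do not say whether these came from separate plants, nor how many leaves each holds. No array was taken before the incubation, so each value below compares sucrose-fed with sorbitol-fed leaves after the same long darkness.

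Nitrate reductase in the cytosol turns nitrate into nitrite, and nitrite reductase in the plastid turns nitrite into ammonium with electrons from ferredoxin. Glutamine synthetase and glutamate synthase then take up the ammonium, and asparagine synthetase moves the amide of glutamine to aspartate to give asparagine, a transport and storage form of nitrogen that is rich in nitrogen for its carbon. Glutamate dehydrogenase, in the mitochondrion, releases ammonium and 2-oxoglutarate from glutamate when carbon is short, and can run in the opposite direction. Nitrate reductase genes are known to respond to nitrate, light and sugars, and GDH1 is known as a gene of dark, carbon-starved leaves.

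The platform annotation used here lists none of the 6 probe sets, so their gene names are those that came with the identifiers, and their match to the genes was not tested. The TAIR10.1 name table holds all 6 symbols, at the loci AT1G77760 (NIA1), AT1G37130 (NIA2), AT2G15620 (NIR1), AT5G18170 (GDH1), AT5G07440 (GDH2) and AT5G65010 (ASN2). The build behind the array was not given in the sources used here, so no coordinates are stated. The arrays carried signs of a difference between replicate numbers: the 25S ribosomal RNA control read 2163 and 1255 on sorbitol 1 and sucrose 1 but 14.4 and 56.6 on the arrays numbered 2. The 3 prime minus 5 prime log2 difference of the older GAPDH control, a sign of RNA integrity, was 0.20 on sucrose 2 and between 1.43 and 1.85 on the other arrays. The other controls of this kind did not set sucrose 2 apart in the same way. The newer GAPDH control had -0.0074 on sucrose 2 and 0.044 to 0.33 elsewhere, and the older actin control had 3.35 on sucrose 2 and 3.26, 3.43 and 4.12 on sorbitol 1, sorbitol 2 and sucrose 1. As a check of the tissue, 8 of 11 leaf photosynthesis markers had a probe set of their own, with intensities of 248 to 5469 in sorbitol and 55.4 to 2942 in sucrose. Their summed intensity was 24923 and 22523 on the sorbitol arrays and 11207 and 7137 on the sucrose arrays, and the part of this difference in the results below was not tested. FMA, a guard cell marker, had intensities of 37.0 to 55.6. EXPA7, an expansin of root hairs, had intensities of 3.4 to 20.8, and markers of phloem, flower, seed and senescence were not analysed here. In whole leaves, fewer cells of a type and less RNA per cell cannot be told apart.

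Sucrose-fed leaves had more NIR1 and GDH2 signal and less GDH1 and NIA2 signal than sorbitol-fed leaves on both arrays of each group. Groups that did not overlap, in either direction, were common, at 52.3% of all probe sets tested. The mean log2 change was -0.41 for NIA2 and 0.33 for ASN2, each with a 95% interval that spans no change. NIA1 was high on a single sucrose array. The mean differences were 4.66-fold for NIR1 and 4.23-fold for GDH2, higher in sucrose, and 2.30-fold for GDH1, higher in sorbitol. None of the 6 genes passed the test over all probe sets: at a limma adjusted p under 0.05, 0 of 6 were called, against 1.29% of the 13648 probe sets tested. At an unadjusted limma p under 0.05 the count was 3 of 6, namely NIR1, GDH2 and GDH1, against 20.7% of all tested. All 6 were bright enough to be tested. Errors of levels are SD with n = 2, and changes are sucrose minus sorbitol in log2 intensity with the standard error (SE) and 95% interval from limma.

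The intensity of NIR1, whose enzyme makes ammonium from nitrite, was 114.0 and 230.1 in sorbitol and 588.0 and 969.7 in sucrose, giving replicate 1 first here and below. The sucrose values both exceeded the sorbitol values, as they did for 26.1% of all probe sets tested. The mean log2 level went from 7.34 ± 0.72 (SD, n = 2) to 9.56 ± 0.51, a change of 2.22 ± 0.45 SE with an interval of 1.13 to 3.31 (limma adjusted p = 0.0747). Of all probe sets tested, 1.32% had a more positive change. Within replicate numbers NIR1 was 5.16-fold higher in pair 1 and 4.21-fold higher in pair 2, the most even change between pairs among the 6 genes, although the level itself was higher on the array numbered 2 in each group. Without sucrose 1 the change was 2.58 and passed (limma adjusted p = 0.0373), in a fit that called 6.95% of all probe sets. Without any other single array it did not pass (limma adjusted p = 0.145 to 0.328).

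NIA2 encodes the nitrate reductase that gives most of the activity in Arabidopsis leaves. Its intensity was 2373 and 2374 in sorbitol and 1451 and 2186 in sucrose. The sorbitol arrays were almost equal, and both sucrose arrays lay below them, which was the case for 26.2% of all probe sets tested. The change was -0.41 ± 0.32 SE with an interval of -1.19 to 0.36 (limma adjusted p = 0.52). The size came mostly from sucrose 1: the change was -0.71 in pair 1 and -0.12 in pair 2, and without sucrose 1 it was -0.12. After quantile normalisation it was -0.13. The interval leaves room for a level in sucrose between 0.438 and 1.28 times that in sorbitol.

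NIA1, the second nitrate reductase gene, had an intensity of 27.4 and 45.1 in sorbitol and of 22.6 and 269.1 in sucrose. Sucrose 2 stood far above the other arrays and sucrose 1 was the lowest, so the groups overlapped. The gap between the sucrose arrays was 3.57 log2 units, and 0.374% of all probe sets tested had a larger gap in that group. The change of 1.15 ± 1.07 SE (interval -1.43 to 3.73, limma adjusted p = 0.60) was made of -0.28 in pair 1 and 2.58 in pair 2. Without sucrose 2 the change was -0.64, and without sucrose 1 it was 2.94 and passed (limma adjusted p = 0.0219, in the fit that called 6.95% of all probe sets), so its direction rested on 1 array. Both GAPDH controls had their lowest 3 prime minus 5 prime difference on sucrose 2 too, at 0.20 (older) and -0.0074 (newer). The actin difference there lay among those of the other arrays, and the part of RNA integrity in the NIA1 value was not tested.

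The within-array log2 ratio of NIA1 to NIA2 was 1.56 higher in sucrose in mean, 0.43 in pair 1 and 2.696 in pair 2. In an exact permutation test over arrays, two-sided, p was 0.667, and 2 arrays against 2 cannot give less than 0.333. With so few arrays this test could not show whether the nitrate reductase genes differ in their change. Nitrite reductase was the single gene of nitrate reduction whose sucrose values both exceeded the sorbitol values, as for 26.1% of all probe sets tested.

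**Figure D1:**
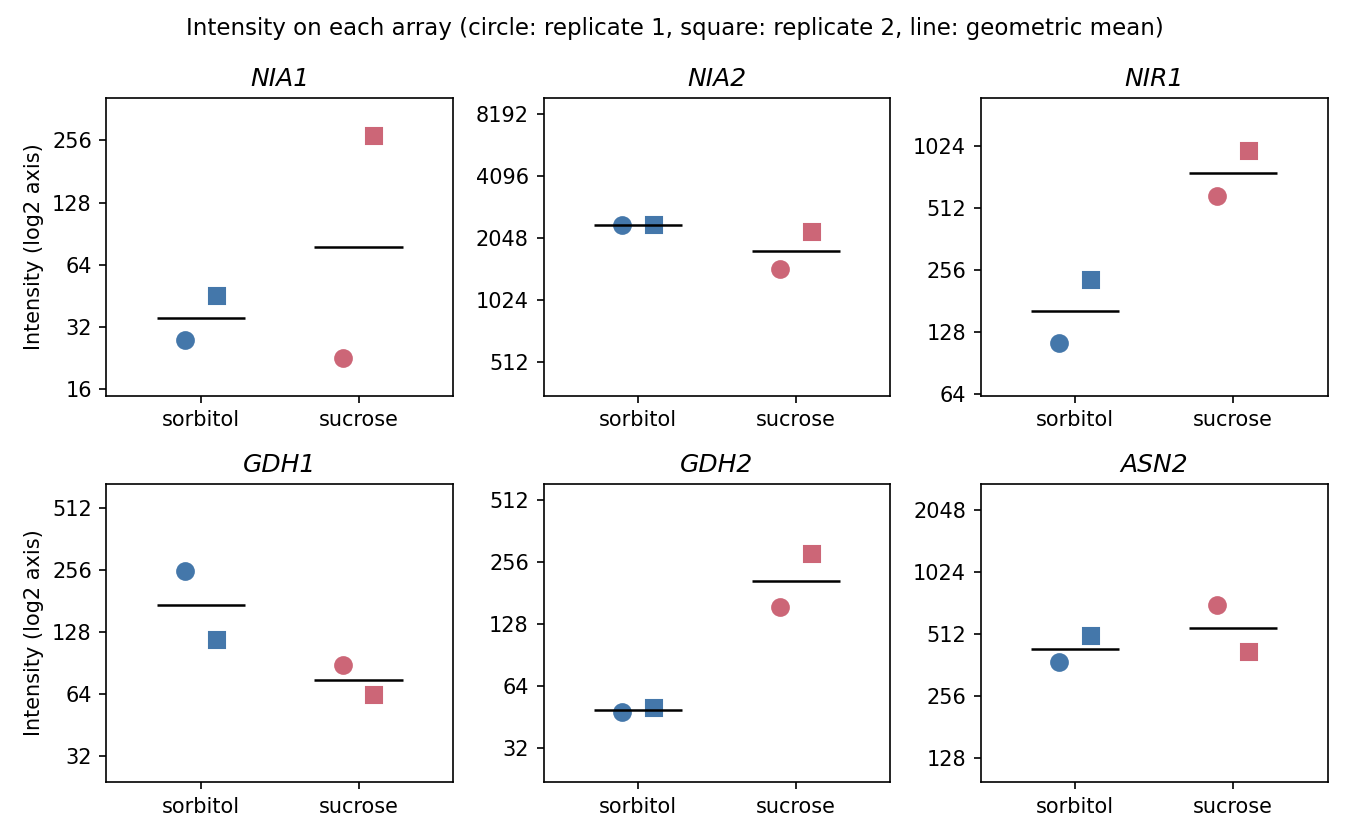
Intensity on a log2 axis (a range of equal ratio in every panel) for the 6 genes on the 2 sorbitol and 2 sucrose arrays; circles are replicate 1, squares replicate 2 and lines geometric means. NIR1 and GDH2 lie higher on both sucrose arrays and GDH1 and NIA2 lower, while NIA1 reached 269.1 on sucrose 2 and 22.6 on sucrose 1.

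GDH2 and GDH1, which encode the alpha and beta subunits of glutamate dehydrogenase, differed from sorbitol in opposite directions. GDH2 had an intensity of 47.8 and 49.8 in sorbitol and of 153.7 and 277.6 in sucrose. The sorbitol arrays were close together and both sucrose arrays lay above them, as for 26.1% of all probe sets tested. The level went from 5.61 ± 0.04 (SD, n = 2) to 7.69 ± 0.60, a change of 2.08 ± 0.38 SE with an interval of 1.17 to 2.99 (limma adjusted p = 0.0603), the smallest adjusted p of the 6 genes. A more positive change was found for 1.55% of all probe sets tested. GDH2 was 3.22-fold higher in pair 1 and 5.57-fold higher in pair 2. It passed without sucrose 1 (change 2.51, limma adjusted p = 0.0194), where 6.95% of all probe sets were called, and not without any other single array (limma adjusted p = 0.103 to 0.285).

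GDH1 had an intensity of 252.7 and 117.7 in sorbitol and of 88.5 and 63.5 in sucrose. Both sucrose arrays lay below both sorbitol arrays, as for 26.2% of all probe sets tested. The sorbitol arrays differed by 1.102 log2 units, a gap exceeded by 7.33% of all probe sets tested. The level went from 7.43 ± 0.78 (SD, n = 2) to 6.23 ± 0.34, a change of -1.20 ± 0.45 SE with an interval of -2.28 to -0.13 (limma adjusted p = 0.20). The change was -1.51 in pair 1 and -0.89 in pair 2. Without sorbitol 1 it was -0.65 and without sorbitol 2 it was -1.75, so its size varied with the sorbitol array kept while its direction did not. Of all probe sets tested, 6.55% had a more negative change.

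The within-array log2 ratio of GDH1 to GDH2 differed by -3.28 between sucrose and sorbitol in mean, with -3.20 in pair 1 and -3.37 in pair 2. The exact permutation test over arrays, two-sided, gave p = 0.333, the smallest that 2 against 2 allows. The groups of GDH1 and of GDH2 lay apart in opposite directions, so the test had to give this value. With so few arrays it could not show whether the glutamate dehydrogenase genes differ in their change. The level of the ratio is not read here, since probe sets differ in how brightly they report a transcript, and only its change between groups is.

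ASN2, which makes asparagine and is known in Arabidopsis as the asparagine synthetase gene active in the light, had an intensity of 375.9 and 501.0 in sorbitol and of 711.5 and 420.8 in sucrose. The highest value was on sucrose 1, but sucrose 2 lay between the sorbitol arrays. The change was 0.33 ± 0.37 SE with an interval of -0.57 to 1.24 (limma adjusted p = 0.67), made of 0.92 in pair 1 and -0.25 in pair 2. Without sucrose 1 it was -0.044. The interval spans a level in sucrose of 0.675 to 2.36 times that in sorbitol. ASN1, the asparagine synthetase of darkness and sugar shortage, and GDH3, the third glutamate dehydrogenase gene, were not analysed here.

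Set side by side, 4 of the 6 genes had groups that did not overlap, NIR1 and GDH2 upward and GDH1 and NIA2 downward, against 52.3% of all probe sets tested. Differences of at least 2-fold in the same direction within both replicate numbers were found for 2 of the 6, NIR1 and GDH2, both upward, and for 0 of the 6 downward. Of all probe sets tested, 4.62% met this rule upward, 5.52% downward and 10.1% in all. NIA1 and ASN2 had opposite signs in the pairs, as did 29.2% of all tested. The median change was 0.74 over the 6 genes and 0.02 over all probe sets tested, and the median size of change was 1.18 against 0.45. The median change of the 6 genes lay between those of ASN2 (0.33) and NIA1 (1.15). The sign of ASN2 turned without sucrose 1 and that of NIA1 without sucrose 2. The median size rested partly on NIA1 too, so no shift of the 6 genes as a set is read from these medians.

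**Figure D2:**
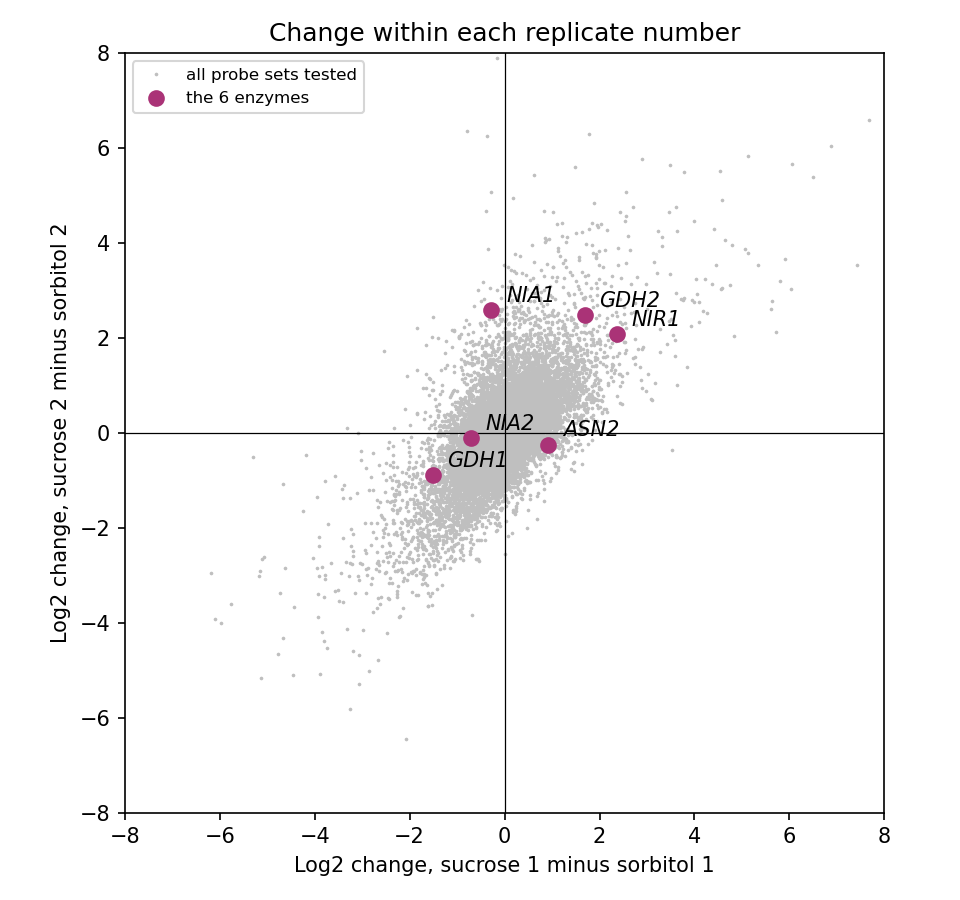
Log2 change within replicate number 1 (horizontal) against that within replicate number 2 (vertical); grey points are the 13648 probe sets tested and large points the 6 genes. NIR1 and GDH2 lie upper right, GDH1 and NIA2 lower left, and NIA1 (-0.28 and 2.58) and ASN2 (0.92 and -0.25) lie where the pairs disagree in sign.

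The ribosomal RNA controls separated the arrays by replicate number. A fit with that number as a block was among the alternatives to the main fit and is also given. NIR1 then had a limma adjusted p of 0.000465, GDH2 of 0.000859 and GDH1 of 0.0197, so that 3 of the 6 passed, against 17.1% of all probe sets tested. Upward these were 2 of the 6 against 8.28%, and downward 1 of the 6 against 8.84%. The blocked intervals were 1.54 to 2.90 for NIR1, 1.39 to 2.78 for GDH2 and -1.88 to -0.52 for GDH1. NIA1 (limma adjusted p = 0.14), NIA2 (0.38) and ASN2 (0.57) did not pass with the block either. The labels do not state that the number marks a shared batch, and the blocked fit has 1 residual degree of freedom.

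**Figure D3:**
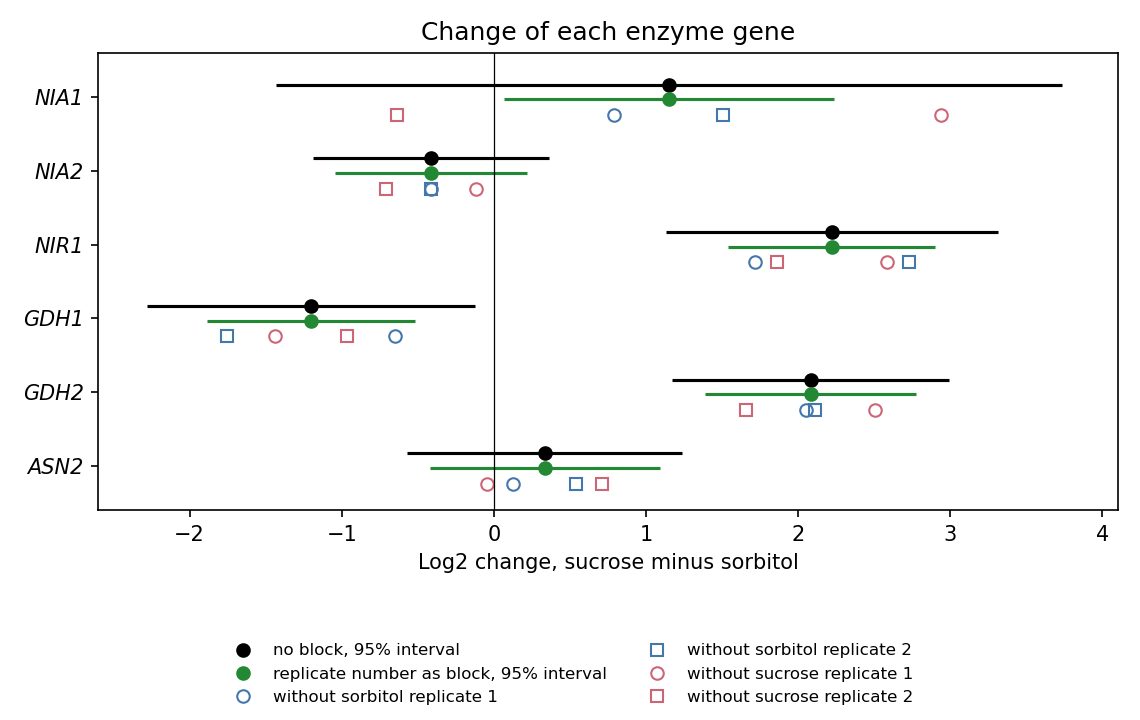
Log2 change of each gene, sucrose minus sorbitol; filled points with bars are the estimate and 95% interval without the block (black) and with it (green), and open symbols are the estimates with 1 array left out. NIR1, GDH2, GDH1 and NIA2 keep their side of 0 whichever array is left out, whereas NIA1 ranges from -0.64 to 2.94 and ASN2 from -0.044 to 0.71.

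Across the 4 arrays, likeness of pattern was measured as the Euclidean distance between log2 profiles, each centred on its own mean. Among the 6 genes NIR1 and GDH2 were closest, at 0.70 log2 units, and NIA1 and GDH1 farthest apart, at 3.92. The nitrate reductase genes lay 2.67 apart and the glutamate dehydrogenase genes 3.51. Among 7355 tested probe sets with a single annotated gene, the nearest to NIR1 were AT4G33985 at 0.28 and AT4G28460 at 0.41. Both were dim on the sorbitol arrays, with intensities of 9.2 and 15.7 for AT4G33985 and of 9.1 and 15.5 for AT4G28460. They were bright enough to be tested only through the sucrose arrays, with 41.3 and 83.3 and with 57.5 and 88.7. Nearest to GDH2 were ATMDAR2, a monodehydroascorbate reductase that recycles ascorbate, at 0.22 and AT1G32920 at 0.26. ATMDAR2 had intensities of 217.5 and 231.8 on the sorbitol arrays and of 606.2 and 1094 on the sucrose arrays, with sucrose 2 the highest as for GDH2.

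GDH1 had its nearest profiles in WRKY47, a WRKY transcription factor, at 0.22 and AT3G60910 at 0.23. WRKY47 had intensities of 57.0 and 31.8 on the sorbitol arrays and of 20.6 and 14.3 on the sucrose arrays, with sorbitol 1 the highest as for GDH1. The pattern of NIA1, high on sucrose 2 alone, was shared most nearly by AT1G63720 at 0.42 and AT5G40690 at 0.46. AT1G63720 had intensities of 22.0, 32.6, 19.7 and 158.3 on sorbitol 1, sorbitol 2, sucrose 1 and sucrose 2, and AT5G40690 had 28.2, 65.7, 30.6 and 275.3. AT1G51210 and AT3G48070 lay nearest to NIA2, both at 0.06, and SNF7.2 (0.10) and AT3G14220 (0.12) nearest to ASN2. With 4 arrays such distances describe these values and carry no test.

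Around these enzymes, 86 further nitrogen genes were listed by role, of which 10 had their own probe set in the annotation and 9 reached the brightness needed for the test. In limma without the block 0 of the 9 passed, against 1.29% of all probe sets tested, and 1 had an unadjusted p under 0.05, against 20.7%. Of the 9, 4 were higher and 5 lower in sucrose with a median change of -0.24. With the replicate number as a block 1 passed, in the downward direction, where 8.84% of all probe sets tested passed. That gene was NRT1.4, a nitrate transporter known from the leaf petiole, with intensities of 391.5 and 706.9 in sorbitol and of 99.7 and 322.6 in sucrose. Both sucrose arrays lay below both sorbitol arrays, as for 26.2% of all probe sets tested, and the array numbered 2 was the higher in each group. Its change was -1.55 ± 0.61 SE (limma adjusted p = 0.22, and 0.00691 with the block), -1.97 in pair 1 and -1.13 in pair 2. NRT2.5, a high-affinity nitrate transporter of starved plants, was too dim to be tested, with intensities of 3.2 to 15.6.

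Among 8 listed genes of the cofactors that both reductases need, 2 were tested. CNX6, a subunit of molybdopterin synthase that serves the molybdenum cofactor of nitrate reductase, had a change of -0.55 (limma adjusted p = 0.36), and its pairs were alike at -0.54 and -0.56. SIRB, a ferrochelatase that makes the siroheme of nitrite reductase, is the other gene and is given with its values known; its change was 0.55 (limma adjusted p = 0.45), 0.38 in pair 1 and 0.71 in pair 2. Of 5 genes listed around asparagine and glutamate 2 were tested, and ASPGB1, an asparaginase that releases ammonium from asparagine, had a change of -0.44 (limma adjusted p = 0.73). CICDH, the cytosolic isocitrate dehydrogenase that supplies 2-oxoglutarate, was the single gene tested of 9 for reductant and carbon skeletons and had a change of -0.44 (limma adjusted p = 0.50). Of 21 regulators 3 were tested, and HHO3, a repressor of nitrate-starvation genes, had a change of 0.82 (limma adjusted p = 0.42). HHO3 had intensities of 127.8 and 114.2 on the sorbitol arrays, 129.2 on sucrose 1 and 353.4 on sucrose 2, so that, as for NIA1, sucrose 2 alone was high. Ammonium transporters, glutamine synthetase, glutamate synthase and aminotransferases were not analysed here.

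**Figure D4:**
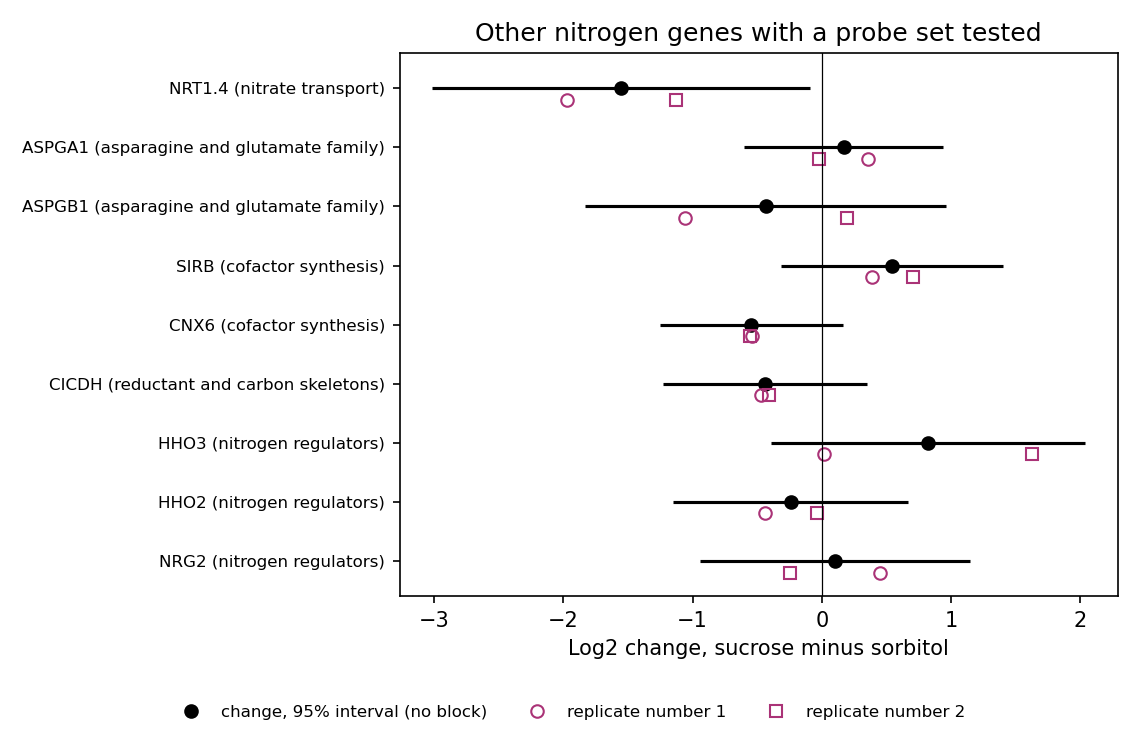
Log2 change, sucrose minus sorbitol, of the 9 further nitrogen genes tested, with the 95% interval from limma without the block (black) and the change within replicate numbers 1 (circles) and 2 (squares). Only the interval of NRT1.4 lies wholly on 1 side of 0, and HHO3 differs most between its pairs, at 0.02 and 1.63.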

How the data were processed

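Leaf RNA, 10 µg per sample per the labels' protocols, was hybridised to 4 one-colour arrays in 2 groups. The deposited table holds an intensity for each of 22810 probe sets, which the authors made with MAS5, per the submitters' processing notes; its version and settings, and the annotation build, are not given in the sources used here. The 2 percent trimmed mean was 100.0 on every array, so the intensities were kept as scaled by the authors. The 64 control probe sets were set aside. Intensities were raised to at least 0.1 (which touched no tested value), converted to log2, and tested where the mean log2 value reached the 40th percentile, an intensity of 18.6. The groups' difference was fitted in R 4.3.3 by limma 3.58.1 (lmFit, eBayes with trend), with Benjamini-Hochberg adjustment over 13648 probe sets and a threshold of 0.05. The fit was also run on simulated data whose noise was independent between arrays, with no difference between replicate numbers. The arrays here may hold such a difference, so nothing is concluded from that run. The number of arrays limits the precision, and the p-values reflect only how far these arrays spread, possibly for technical reasons.

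Genes other than the 6 were named through the platform annotation, where 13513 probe sets have a single gene, 503 have several and 8730 are not listed; 13436 of the single genes matched TAIR10.1 by gene number. A gene was represented by its brightest probe set of its own. Besides the 6 enzymes, the genes named are listed nitrogen genes past the threshold with or without the block, otherwise the listed gene with the smallest p in each role, and the 2 nearest profiles for each enzyme; NRT2.5 and SIRB were named after their values were seen. The 6 enzymes, the lists and the tests were chosen with earlier results of these data known. Alternatives were the filter, a pseudocount of 5.3 (the 20th percentile), values raised to 9.3 (the highest of 27 Bacillus control probe sets), quantile normalisation, median centring, no trend, a block for the replicate number, leaving out each array, and, added after seeing the data, a count of 2-fold differences in both pairs.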

Additional observations from a re-analysis of the deposited data

How the results depend on the processing

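Over probe sets, arrays with the same number deviated from their group means with a correlation of 0.43, and with 2 pairs the pairing is not settled. With the replicate block NIR1 (2.22), GDH2 (2.08) and GDH1 (-1.20) passed in limma, 2 of the 6 upward and 1 downward, with 1 listed nitrogen gene downward and 1130 and 1206 probe sets higher and lower. With the 60th percentile filter NIA1 was too dim to be tested, and 1 of the 5 enzymes tested passed, upward, GDH2 (2.08, limma adjusted p = 0.0451). That fit called 2.91% of 9099 probe sets, 83 higher and 182 lower. By a rule of 2-fold in both pairs, 2 of the 6 were higher, with 630 probe sets higher and 753 lower. Against 50 higher and 126 lower, probe sets called in limma were 26 and 77 without the trend, 21 and 71 after quantile normalisation, and 1 and 2 when no filter was set, and 196 were lower with median centring. Without 1 array, higher calls ranged from 0 to 403 and lower calls from 0 to 545, and from 0 to 3 of the 6 enzymes passed upward, all 3 without sucrose 1. Such fits estimate the spread within the intact group and assume that the lone array varies alike. The changes without 1 array ran from 1.71 to 2.73 for NIR1, 1.66 to 2.51 for GDH2, -1.75 to -0.65 for GDH1, -0.71 to -0.12 for NIA2, -0.64 to 2.94 for NIA1 and -0.044 to 0.71 for ASN2. The turned signs of NIA1 and ASN2 came in fits with fewer samples. Under the remaining filters, scalings and treatments of dim values, the 6 changes kept their sign and none passed.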
